A study of Mus musculus with 19 samples.

Results

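The RNA of 7 genes of the mouse egg coat and of sperm-egg fusion was followed from the mature egg to the 2cell embryo, in libraries labelled by the genotype of the mother for *Cpeb3*. The genes were chosen by name from a list, with earlier results of these data known. They are *Zp1*, *Zp2* and *Zp3*, which encode the egg coat, *Astl*, which encodes the protease that changes the coat after fertilization, and *Izumo1r*, *Cd9* and *Cd81*, which encode proteins of the egg surface. All 7 are among the 25891 genes of the table. The samples are MII oocytes, which are mature eggs arrested in metaphase, and 2cell embryos, of BL6 females aged 6 to 10 weeks and superovulated with PMSG and hCG. The labels give 5 Het and 5 KO MII libraries, and 5 Het and 4 KO 2cell libraries. The 2cell embryos came from mated females, were cultured in M16 medium and were collected 37 h after hCG.

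The study calls the Het libraries CPEB3+/- and the KO libraries CPEB3-/-. The latter genotype is given as CPEB3 LoxP/LoxP; ZP3 Cre+/-, a deletion limited to the oocyte. Cre, the recombinase that makes the deletion, is driven by the promoter of *Zp3*, so 1 of the 7 genes has its regulatory sequence in the transgene. The methods also name CPEB3 LoxP/-; ZP3 Cre+/-, which they count as wild type beside CPEB3+/+, and do not tie either genotype to the libraries labelled Het. The genotype is that of the mother, also for the embryos. Each library was made from a pool of a few cells, whose RNA was turned into cDNA with a SMART-seq kit. Such kits prime on the poly(A) tail, so less RNA and RNA with shorter tails cannot be told apart here. Fewer cells in a pool and less RNA per cell cannot be told apart either. The methods describe quadruplicates, fewer than the labels list for 3 of the groups, and every labelled library was used. Nothing says whether libraries of a group came from separate females, so p values measure the spread between libraries.

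The egg coat, or zona pellucida, is a matrix of glycoproteins that the growing oocyte secretes. ZP2 and ZP3 form its long filaments and ZP1 links them to each other. Sperm bind to ZP2. After fertilization the protease ovastacin, encoded by *Astl*, is released from cortical granules and cleaves ZP2, and later sperm no longer bind. At the egg membrane the sperm protein IZUMO1 is held by JUNO, the product of *Izumo1r*. CD9, a tetraspanin of the microvilli, is needed in the egg for fusion, and CD81 is a related tetraspanin. Zona genes are transcribed in growing oocytes, while transcription is silent in the MII oocyte and resumes at the 2cell stage in the mouse. CPEB proteins bind U-rich elements near the 3′ end of mRNAs and act there on the length of the poly(A) tail.

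Since the 3′ end is where CPEB proteins act, the end of each transcript is shown first. Positions refer to GRCm38 and GENCODE vM21, for the longest complete coding transcript of each gene, and each stretch of 30 bases is written in the sense of the RNA. It ends with the transcript except for *Cd81*, where it begins at the signal and covers bases 1499 to 1528 of 1533. The capitals mark the polyadenylation signal AATAAA.
Zp1, chr19:10914289-10914318, minus strand: actcAATAAAccattgtttgaaaactcctg
Zp2, chr7:120126772-120126801, minus strand: tctttaaactctAATAAAattatcctctgg
Zp3, chr5:135988595-135988624, plus strand: tatcccttccgcAATAAAagaagaaactca
Astl, chr2:127357622-127357651, plus strand: ggtagaAATAAAgttgggtgtttgcttcat
Izumo1r, chr9:14900023-14900052, minus strand: gtaccttcAATAAAaggctaggaaactcta
Cd9, chr6:125460266-125460295, minus strand: tttgatacatAATAAAagattataacagtg
Cd81, chr7:143067900-143067929, plus strand: AATAAAggaggaaaaaaatcaggcatgcta

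All 7 genes had AATAAA within their last 60 bases, a word found there in 60.3% of 21742 coding genes. The zona genes had the shortest 3′UTRs. That of *Zp3* was 13 bases long, and its stop codon TAA was part of the polyadenylation signal itself. The 3′UTR of *Zp1* was 34 bases and that of *Zp2* 173 bases. The 3′UTRs of *Izumo1r* (333 bases), *Cd9* (395 bases), *Cd81* (560 bases) and *Astl* (877 bases) were longer, and all 7 lay below the median of 1011 bases over 16931 genes. The words TTTTAT and TTTTAAT, forms of the cytoplasmic polyadenylation element, were in the last 150 bases of 0 of the 7 transcripts and of 21.6% of all coding genes. In the whole 3′UTR, *Cd9* and *Cd81* held 1 such word each and the other genes none. A missing word says only that these letters are not in this window.

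**Figure D1:**
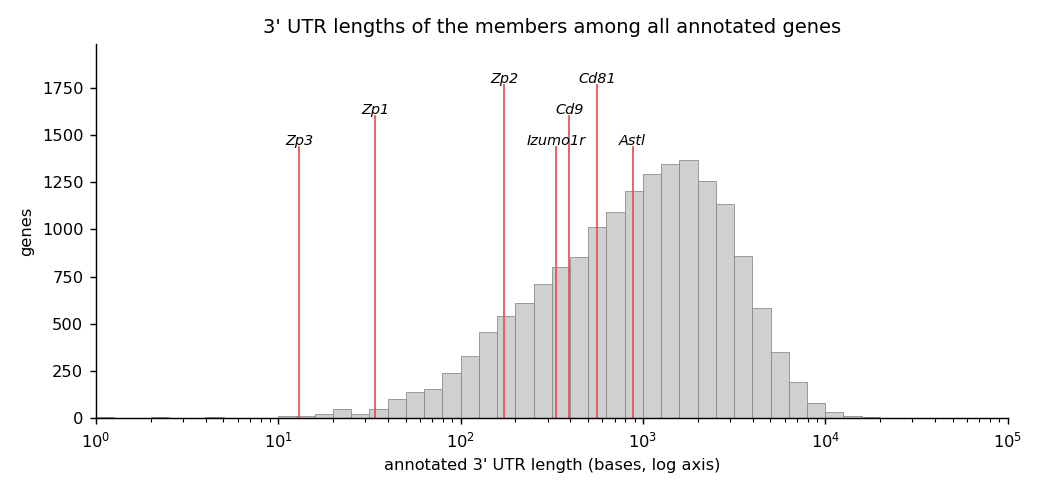
The grey bars count genes by annotated 3′UTR length in bases on a log axis, and each red line marks 1 of the 7 genes. Zp3 (13 bases) and Zp1 (34 bases) lie at the short end, and all 7 lie below the median of 1011 bases.

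The genes are spread over 6 chromosomes. *Zp1* (ENSMUSG00000024734.8) spans chr19:10914287-10920632, with 12 exons in the transcript used. *Zp2* (ENSMUSG00000030911.7) spans chr7:120126772-120145291 with 18 exons, and *Zp3* (ENSMUSG00000004948.12) chr5:135980099-135988624 with 8 exons. *Astl* (ENSMUSG00000050468.12) spans chr2:127338639-127357651, and *Izumo1r* (ENSMUSG00000031933.17) chr9:14885814-14903949. *Cd9* (ENSMUSG00000030342.8) spans chr6:125460266-125494791 and *Cd81* (ENSMUSG00000037706.17) chr7:143052739-143067934. *Cd9* shares 218 exon bases with *Gm26728* on the other strand, and the use of strand in the quantification is not stated. *Gm26728* was listed at 0.0795 FPKM or less in every library.

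The promoters of 5 of the 7 genes are in the RefSeq table used here (GRCm38.p6), which does not list those of *Zp1* and *Zp2*. E-boxes (CANNTG), which the oocyte factor FIGLA binds in zona genes, are in 72.3% of 32851 promoters of the same length, and their form CAGGTG or its reverse complement CACCTG is in 20.2%. The windows with that form are shown for the gene whose promoter drives Cre and for those whose RNA changed most, in the sense of the gene and with the E-box in capitals.
Zp3, chr5:135980038-135980067, plus strand: gcagagggaattCAGGTGggagggtgggcc
Astl, chr2:127341515-127341544, plus strand: tgggcaggtcttCAGGTGatagttgttggg
Cd9, chr6:125494816-125494845, minus strand: gcatgggcggggCAGGTGggccggggggcg
The E-box shown began 55 bases before the start of *Zp3*, 109 bases before an annotated start of *Astl* and 73 bases before that of *Cd9*. *Astl* held 2 more CAGGTG words, at 83 and 59 bases before its start. *Izumo1r* held CACCTG 57 bases before its start, and *Cd81* held only the form CAGCTG. Other forms of the E-box were present as well. Counted from the start, *Zp3* held CACGTG at -181, CAGATG at -134 and CAGCTG at 7. *Cd9* held CACATG at -38 and CAGCTG at -25. Which of these words FIGLA binds was not tested. All are matches of letters and not shown sites.

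The values are FPKM, fragment numbers divided by transcript length and library size. Levels of different genes are set side by side as FPKM only. Priming on the poly(A) tail may capture genes unequally, and the transcript lengths used are not stated. Group values are means of the FPKM as deposited. For the tests, log2(FPKM + 0.1) of scaled values was fitted with limma for every gene that reached 0.1 FPKM in a number of libraries no lower than the size of the smaller group. A gene was called at an adjusted p (Benjamini-Hochberg, over all genes tested) under 0.05 and a difference above 1.5-fold, and for the interaction of stage and genotype at the adjusted p alone. Fold changes on this scale understate the change of low genes. Estimated from the steps between low values, depth was 17.2 to 23.5 mega-fragments per library. Oocyte markers such as *Gdf9* and *Bmp15* were high in MII oocytes (summed over 8 oocyte markers, 2029 to 2174 FPKM in Het and 1546 to 1737 FPKM in KO MII libraries). Of the 8, *Dppa3*, *Mos* and *Oog1* were called lower in KO MII libraries, as were 7.29% of all genes tested. *Gdf9*, *Mos* and *Ooep* passed the interaction test with a value above 0, as did 3.87% of all genes tested. Their part in the results for the members was not tested. All 6 tested markers of 2cell embryos were called higher in 2cell embryos of both genotypes, as were 38.5% (Het) and 37.5% (KO) of all genes. Of 12 markers of cumulus and granulosa cells 7 are in the table, and their summed FPKM was 0.241 to 0.657 over all libraries. *Foxl2* was listed at 0 in all MII libraries. The RNA of *Cpeb3* was 0.0755 ± 0.0240 FPKM (SD, n = 5) in Het and 0.162 ± 0.0325 FPKM (n = 5) in KO MII oocytes, and 0.0303 ± 0.0149 (n = 5) and 0.0554 ± 0.0129 FPKM (n = 4) in 2cell embryos. In MII oocytes all KO libraries (0.131 to 0.215 FPKM) were above all Het ones (0.0450 to 0.101 FPKM), and the value does not separate deleted exons from the rest. Het and KO therefore stand for libraries labelled so in every comparison below.

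In MII oocytes *Zp3* and *Zp1* had the highest FPKM of the 7 genes and *Cd81* the lowest. In the Het-labelled MII oocytes the order of mean levels was *Zp3*, *Zp1*, *Zp2*, *Astl*, *Izumo1r*, *Cd9*, *Cd81*, and the KO-labelled MII oocytes had the same order. The libraries of *Zp3* and *Zp1* overlapped, as did those of *Zp2* and *Astl* and those of *Astl* and *Izumo1r*, while *Zp1* and *Zp2*, *Izumo1r* and *Cd9*, and *Cd9* and *Cd81* were apart. *Zp3* lay at the 94.9th percentile of all genes in Het-labelled MII oocytes and *Cd9* at the 73.9th. In Het-labelled 2cell embryos *Cd9* had moved to the second place behind *Zp3*, and in KO-labelled 2cell embryos it stood behind the zona genes and *Izumo1r*. The libraries of *Cd9* overlapped those of *Zp3* and *Zp1* in Het-labelled 2cell embryos and those of *Izumo1r* in KO-labelled ones.

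**Figure D2:**
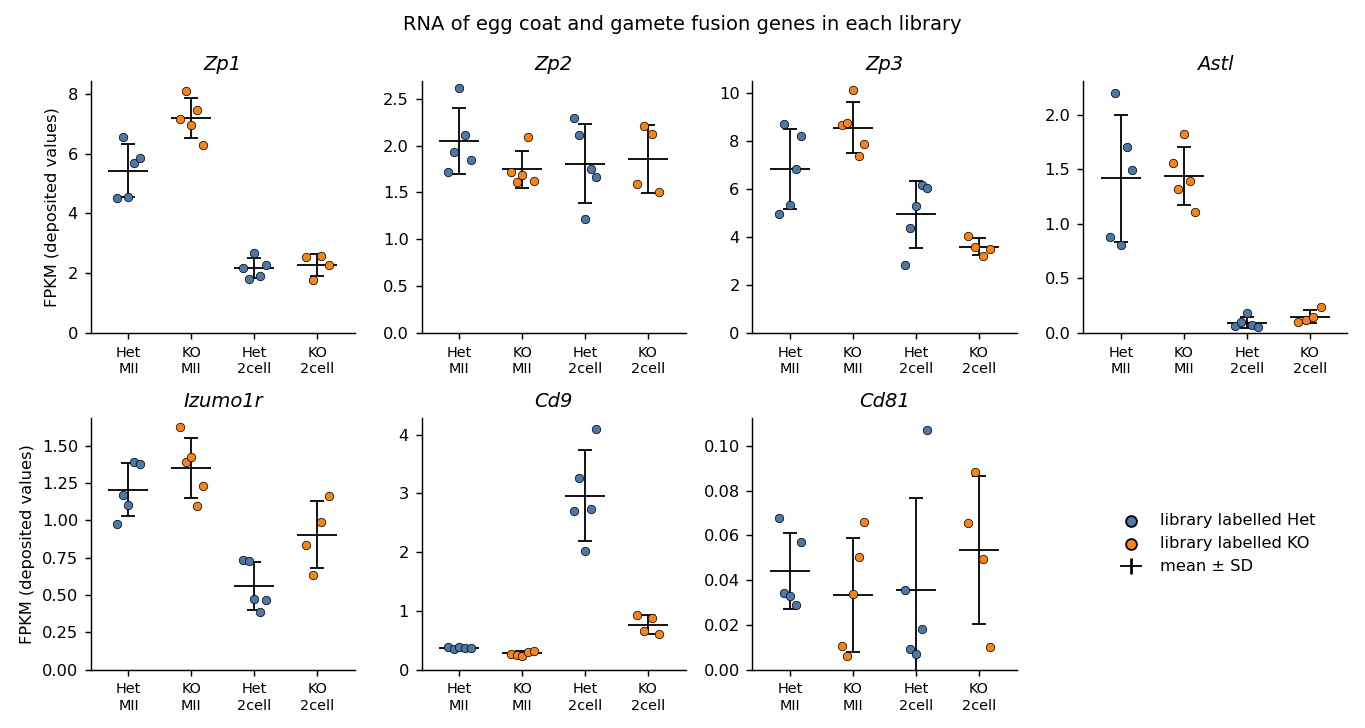
Each point is the deposited FPKM of 1 library, on an axis that starts at 0 and differs between genes, and the bars give the mean ± SD of 5, 5, 5 and 4 libraries. Cd9 in Het-labelled 2cell embryos (2.02 to 4.09 FPKM) stands above all other groups, and Astl is near 0 in both groups of 2cell embryos.

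*Cd9*, the tetraspanin needed for fusion, differed most between the genotypes. In Het-labelled MII oocytes its libraries were at 0.384, 0.354, 0.383, 0.372 and 0.363 FPKM. In KO-labelled MII oocytes they were at 0.275, 0.254, 0.236, 0.306 and 0.316 FPKM. All 5 KO-labelled libraries lay below all 5 Het-labelled ones, on levels that correspond to about 10.2 to 18.4 fragments a library. Groups without overlap were found for 16.3% of all genes tested in MII oocytes. The log2 fold change of *Cd9* was -0.40 (standard error 0.113, 95% interval -0.65 to -0.15, adjusted p = 0.0313, limma). The difference was under 1.5-fold and *Cd9* was not called. The adjusted p (limma) was 0.0916 with values scaled to the sum of FPKM, 0.0980 with all libraries in 1 fit and 0.108 with the replicate block, and was over 0.05 in 6 of 10 fits without 1 library.

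In Het-labelled 2cell embryos *Cd9* was at 2.70, 3.26, 2.02, 2.74 and 4.09 FPKM. In KO-labelled 2cell embryos it was at 0.924, 0.660, 0.881 and 0.611 FPKM. The lowest Het-labelled library was above the highest KO-labelled one. Mean levels were 2.96 ± 0.768 (SD, n = 5) and 0.769 ± 0.157 FPKM (n = 4), a ratio of 3.85-fold. The log2 fold change was -1.85 (standard error 0.215, 95% interval -2.33 to -1.37, adjusted p = 0.00125, limma), and *Cd9* was 79th by p of 14051 genes tested. With a pseudocount of 1 FPKM the value was -1.18, still called. It was the only 1 of the 6 tested members called between the genotypes of 2cell embryos, where 18.3% of all genes were called, 8.41% higher and 9.85% lower. Groups did not overlap for 20.0% of all genes. *Cd9* is in gene lists that the study drew from its own 2cell comparison of these libraries, so this is not independent evidence of its direction.

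Between the stages *Cd9* rose in both genotypes. The log2 fold change from MII oocytes to 2cell embryos was 2.55 in Het-labelled (standard error 0.177, adjusted p = 1.21e-07, limma) and 1.11 in KO-labelled libraries (standard error 0.160, adjusted p = 0.000112, limma). Mean FPKM differed 7.98-fold and 2.77-fold. With a pseudocount of 1 FPKM the log2 values were 1.44 and 0.43, and the KO-labelled call was lost, being under 1.5-fold. The difference between the genotypes was larger in 2cell embryos than in MII oocytes. The interaction of stage and genotype was -1.40 (standard error 0.237, 95% interval -1.90 to -0.90, adjusted p = 0.00179, limma), and 7.89% of 15786 genes passed that test, 3.87% above and 4.02% below 0. *Cd9* was the only member of the 6 tested to pass.

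Some markers of 2cell embryos were also lower in KO-labelled 2cell embryos. Of 7 listed markers 6 were tested, 2 were called lower in KO-labelled 2cell embryos (*Zscan4d* and *Eif1a*), and 0 were called higher. Over all genes tested there, 9.85% were called lower and 8.41% higher. The summed FPKM of the list was 310 to 490 in Het-labelled and 262 to 365 in KO-labelled 2cell embryos, and none of the 6 was listed at 0 in all libraries of a group. The median log2 fold change of the 6 was -0.84, beside -0.01 over all genes. An unadjusted p under 0.05 (limma) was found for 4 of the 6 and for 34.3% of all genes. *Tdpoz4* (20.8 and 10.9 FPKM), *Gm8300* (92.5 and 57.2 FPKM) and *Zfp352* (44.0 and 38.9 FPKM) had lower means in KO-labelled 2cell embryos and were not called. *Tcstv3*, another of the list, was at 127 ± 16.3 FPKM in Het-labelled (SD, n = 5) and 152 ± 18.2 FPKM in KO-labelled 2cell embryos (n = 4). Of 8 oocyte markers, *Ooep* was called higher in KO-labelled 2cell embryos (29.5 ± 3.10 against 56.9 ± 3.63 FPKM). In MII oocytes, where *Cd9* was lower in KO-labelled libraries, *Zscan4d* was called higher in them (1.15 ± 0.294 against 9.88 ± 2.81 FPKM, n = 5 each). Of 12 cumulus and granulosa markers 2 were tested in 2cell embryos. *Tnfaip6*, a gene of the expanding cumulus, was called lower in KO-labelled 2cell embryos (0.274 ± 0.0882 against 0.0905 ± 0.0403 FPKM, n = 5 and 4). Its means in MII oocytes were 0.00307 FPKM in Het-labelled and 0.000469 FPKM in KO-labelled libraries. The other, *Star*, which encodes the cholesterol carrier of steroid synthesis, was at 0.103 ± 0.0366 and 0.197 ± 0.126 FPKM (0.45 on the log2 scale, adjusted p = 0.249, limma) and was not called. The summed cumulus list was 0.423 to 0.657 FPKM in Het-labelled and 0.241 to 0.630 FPKM in KO-labelled 2cell embryos. In MII oocytes it was 0.271 to 0.485 FPKM in Het-labelled libraries, a range that holds all values of *Cd9* there, and 0.263 FPKM or more in KO-labelled ones. The part of these markers in the results for *Cd9* was not tested.

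*Cd81*, the second tetraspanin, was at the limit of detection. Its highest value over all libraries was 0.107 FPKM, about 6.19 fragments, and 12 of 19 libraries were at or under 3 fragments. It did not pass the filter on low values in any comparison and no fold is given. Differences among levels this low were not detectable at this depth. The mean levels were 0.0442 and 0.0334 FPKM in Het- and KO-labelled MII oocytes (n = 5 each) and 0.0354 (n = 5) and 0.0535 FPKM (n = 4) in 2cell embryos.

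*Izumo1r*, the gene of the IZUMO1 receptor JUNO, was lower in 2cell embryos than in MII oocytes. In Het-labelled MII oocytes it was at 0.977, 1.17, 1.10, 1.39 and 1.37 FPKM, and in KO-labelled ones at 1.62, 1.39, 1.42, 1.09 and 1.23 FPKM. In 2cell embryos the Het-labelled libraries were at 0.736, 0.725, 0.477, 0.387 and 0.465 FPKM and the KO-labelled ones at 0.835, 0.635, 0.986 and 1.16 FPKM. The stages did not overlap in Het-labelled libraries, whereas the highest KO-labelled 2cell library lay within the range of the KO-labelled MII oocytes. From MII to 2cell the log2 fold change was -1.12 in Het-labelled (standard error 0.175, adjusted p = 0.000106, limma) and -0.64 in KO-labelled libraries (standard error 0.170, adjusted p = 0.00631, limma). The call in KO-labelled libraries was lost with the values as deposited (log2 fold change -0.55, under 1.5-fold), with a pseudocount of 1 FPKM (-0.36) and without KO 2cell replicate B (-0.51). The Het-labelled call was lost with a pseudocount of 1 FPKM (-0.56). Between the genotypes the log2 fold change was 0.06 in MII oocytes (95% interval -0.18 to 0.31, adjusted p = 0.705, limma) and 0.57 in 2cell embryos (0.02 to 1.11, adjusted p = 0.131, limma). *Izumo1r* did not pass in either stage. At the 2cell stage it was called higher in KO-labelled libraries with values scaled to the sum of FPKM (0.87) and with all libraries in 1 fit (0.59).

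A relative of each of these 2 surface genes was read beside it. *Cd63* was taken because it was called, the only 1 of 9 tested oolemma partners called between the genotypes of 2cell embryos. Other tetraspanins of that list are not shown. *Folr1*, which encodes a folate receptor of the same family as JUNO, was at 0.0153 FPKM or less in all MII libraries. In 2cell embryos it was at 1.23, 1.88, 2.30, 2.97 and 2.69 FPKM in Het-labelled and at 1.44, 1.31, 1.38 and 1.36 FPKM in KO-labelled libraries. It was called higher in 2cell embryos of both genotypes, in the opposite direction to *Izumo1r*, and its adjusted p between the genotypes of 2cell embryos was 0.0596 (limma). *Cd63*, a tetraspanin of the endosome, was at 0.0345 FPKM or less in MII oocytes. In 2cell embryos it was at 5.61, 7.47, 9.64, 9.09 and 10.1 FPKM in Het-labelled and at 5.13, 3.13, 2.56 and 3.03 FPKM in KO-labelled libraries. The genotypes did not overlap in 2cell embryos, as for *Cd9* and for 20.0% of all genes (-1.33 on the log2 scale, standard error 0.212, adjusted p = 0.00401, limma). The interaction passed (-1.37, adjusted p = 0.00301, limma), as it did for 7.89% of all genes. The table also lists *Cd63-ps*, a pseudogene copy, at 54.5 ± 11.6 FPKM (SD, n = 5) in Het-labelled and 22.8 ± 6.91 FPKM (n = 4) in KO-labelled 2cell embryos. Reads of the gene and of the copy may have been shared between them, so the level of *Cd63* is uncertain.

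**Figure D3:**
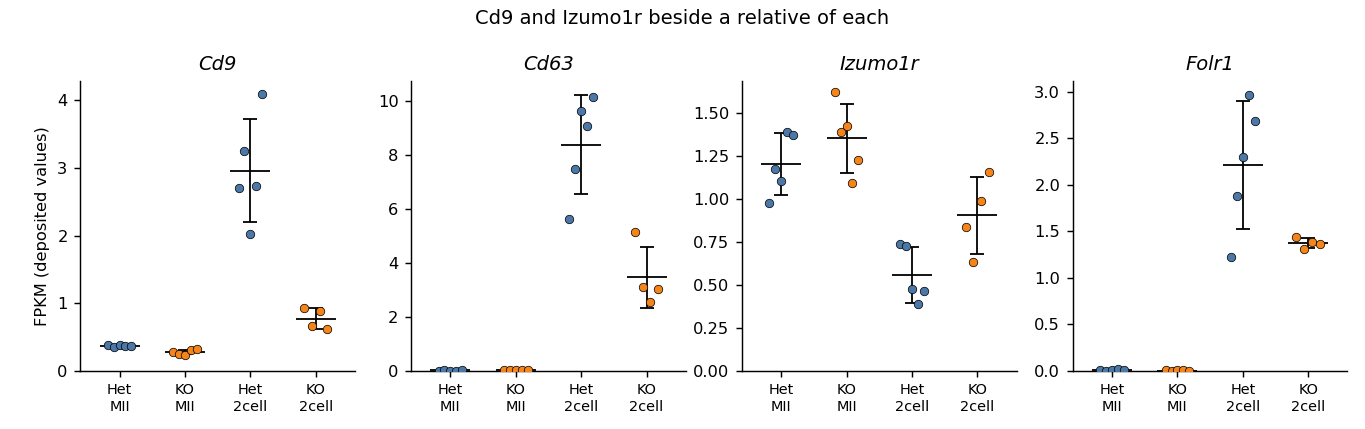
Each point is the deposited FPKM of 1 library, with the mean ± SD of its group (n = 5, 5, 5 and 4), for Cd9 and Cd63, both tetraspanins, and for Izumo1r and Folr1, both of the folate receptor family. Cd9 and Cd63 are highest in Het-labelled 2cell embryos, and Izumo1r is lower and Folr1 higher in 2cell embryos than in MII oocytes.

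*Astl*, the gene of the zona protease ovastacin, had the largest fall between the stages among the members. In Het-labelled MII oocytes it was at 0.876, 2.20, 0.810, 1.70 and 1.49 FPKM and in KO-labelled ones at 1.55, 1.32, 1.82, 1.39 and 1.11 FPKM. In 2cell embryos it was at 0.0627, 0.0994, 0.181, 0.0768 and 0.0541 FPKM in Het-labelled and at 0.0993, 0.118, 0.144 and 0.239 FPKM in KO-labelled libraries. Every 2cell library was below every MII library, and the 2cell values rest on about 2.78 to 11.8 fragments. Of the 5 Het-labelled 2cell libraries, 2 were at or under 3 fragments and only 1 reached 0.1 FPKM. *Astl* thus passed the filter of the Het-labelled stage comparison through the MII oocytes, and the size of its fall is uncertain. The log2 fold change was -2.99 in Het-labelled (standard error 0.246, adjusted p = 5.01e-07, limma) and -2.71 in KO-labelled libraries (standard error 0.190, adjusted p = 5.72e-07, limma). With a pseudocount of 1 FPKM these values were -1.14 and -1.11, both still called. Between the genotypes the MII values overlapped, with a log2 fold change of 0.00 (95% interval -0.49 to 0.50, adjusted p = 0.991, limma). The value for 2cell embryos was 0.34 (-0.19 to 0.87, adjusted p = 0.341, limma).

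Of the zona genes, *Zp1* and *Zp3* fell between the stages and *Zp2* was not called. *Zp1*, the linker of the filaments, was at 4.52, 6.54, 4.54, 5.69 and 5.86 FPKM in Het-labelled MII oocytes and at 7.16, 8.11, 6.96, 7.46 and 6.29 FPKM in KO-labelled ones. At the 2cell stage it was at 2.17, 1.82, 2.67, 1.90 and 2.26 FPKM in Het-labelled and at 2.53, 1.77, 2.57 and 2.29 FPKM in KO-labelled libraries. In MII oocytes 1 KO-labelled library (6.29 FPKM) lay within the Het-labelled range, and the stages did not overlap. The log2 fold change between the stages was -1.41 in Het-labelled (standard error 0.121, adjusted p = 7.15e-07, limma) and -1.72 in KO-labelled libraries (standard error 0.131, adjusted p = 1.03e-06, limma). Between the genotypes of MII oocytes it was 0.31 (standard error 0.098, 95% interval 0.09 to 0.53, adjusted p = 0.0461, limma), under 1.5-fold and thus not called. With the GC trend removed it was 0.13 (adjusted p = 0.363, limma), and the adjusted p was over 0.05 in 8 of 10 fits without 1 library. The same comparison in 2cell embryos gave 0.02 (-0.32 to 0.37, adjusted p = 0.937, limma).

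*Zp2*, the sperm-binding protein of the coat, overlapped between all 4 groups. In MII oocytes it was at 1.72, 1.93, 2.62, 2.12 and 1.85 FPKM in Het-labelled and at 1.72, 1.61, 1.69, 2.10 and 1.62 FPKM in KO-labelled libraries. Its 2cell libraries were at 2.29, 2.11, 1.21, 1.75 and 1.67 FPKM in Het-labelled and at 1.59, 2.21, 2.12 and 1.5 FPKM in KO-labelled libraries. Between the stages the log2 fold change was -0.31 in Het-labelled (95% interval -0.74 to 0.12, adjusted p = 0.169, limma) and -0.02 in KO-labelled libraries (-0.37 to 0.33, adjusted p = 0.896, limma). Between the genotypes it was -0.30 in MII oocytes (-0.62 to 0.02, adjusted p = 0.156, limma) and -0.01 in 2cell embryos (-0.51 to 0.50, adjusted p = 0.989, limma). The value between the stages depends on scaling. In Het-labelled libraries *Zp2* was called lower with values scaled to the sum of FPKM (-0.93) and after quantile normalization (-0.67), which set the median of all genes at -0.41 and -0.35 instead of 0.12. In KO-labelled libraries the values were -0.47 (adjusted p = 0.0270, limma) scaled to the sum and -0.33 (adjusted p = 0.105, limma) after quantile normalization, and neither was called.

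*Zp3*, the partner of ZP2 in the filaments and the source of the Cre promoter, was at 4.97, 8.71, 5.34, 6.82 and 8.18 FPKM in Het-labelled MII oocytes and at 8.66, 8.72, 10.1, 7.35 and 7.85 FPKM in KO-labelled ones. The 2cell libraries were at 2.82, 4.36, 5.27, 6.17 and 6.04 FPKM in Het-labelled and at 4.05, 3.57, 3.20 and 3.49 FPKM in KO-labelled libraries. The stages were apart in KO-labelled libraries and overlapped in Het-labelled ones. *Zp3* fell from MII to 2cell by 1.33 on the log2 scale in KO-labelled libraries (standard error 0.115, adjusted p = 2.59e-06, limma). In Het-labelled libraries it fell by 0.60 (standard error 0.213, adjusted p = 0.0233, limma). The Het-labelled call was lost with the values as deposited (log2 fold change -0.47, adjusted p = 0.0845, limma), with a pseudocount of 1 FPKM (-0.51), without Het 2cell replicate A (-0.42) and without Het 2cell replicate B (-0.56). The interaction was -0.67 (95% interval -1.19 to -0.14, adjusted p = 0.116, limma) and did not pass. Between the genotypes the log2 fold change was 0.25 in MII oocytes (-0.04 to 0.54, adjusted p = 0.192, limma) and -0.46 in 2cell embryos (-0.91 to -0.01, adjusted p = 0.139, limma), and neither was called. Without Het 2cell replicate A, the library with the lowest *Zp3* of its stage, the 2cell value was -0.62 (adjusted p = 0.0175, limma) and the interaction -0.84 (adjusted p = 0.00940, limma), and both passed. With the GC trend removed they were -0.74 (adjusted p = 0.0359, limma) and -0.79 (adjusted p = 0.0454, limma), and both passed as well. Scaled to the sum of FPKM, the 2cell value was -0.12 (adjusted p = 0.738, limma).

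In counts, 0 of the 6 tested members were called between the genotypes of MII oocytes, where 12.9% of all genes were called (5.59% higher and 7.29% lower). Over all genes this balance of 588 higher and 767 lower became 1111 and 478 with scaling to the sum of FPKM and 786 and 591 as deposited. At an unadjusted p under 0.05 there were 2 (*Zp1* and *Cd9*), where 37.1% of all genes passed, and 0 of these exceeded 1.5-fold. In 2cell embryos the count was 1 (*Cd9*), and 3 at an unadjusted p under 0.05, where 34.3% of all genes passed. Of all genes there, 1181 were called higher and 1384 lower, which became 2423 and 573 with scaling to the sum and 1313 and 1196 as deposited. Between the stages 5 of 6 were called in Het-labelled libraries, 4 lower and 1 higher, where 69.5% of all genes were called, 30.9% lower and 38.5% higher. Over all genes, scaling to the sum of FPKM turned this balance to 3920 higher and 5588 lower, and quantile normalization to 3874 and 5451. In KO-labelled libraries the counts were also 4 lower and 1 higher, against 67.2% of all genes called, 29.7% lower and 37.5% higher, a balance that became 4277 higher and 5280 lower with scaling to the sum and 4013 and 5664 after quantile normalization. The median log2 fold change of the 6 members was -0.86 in Het-labelled and -0.98 in KO-labelled libraries, beside 0.12 over all genes tested in each. Both genotypes had 4 members whose stages did not overlap (64.4% and 63.5% of all genes).

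**Figure D4:**
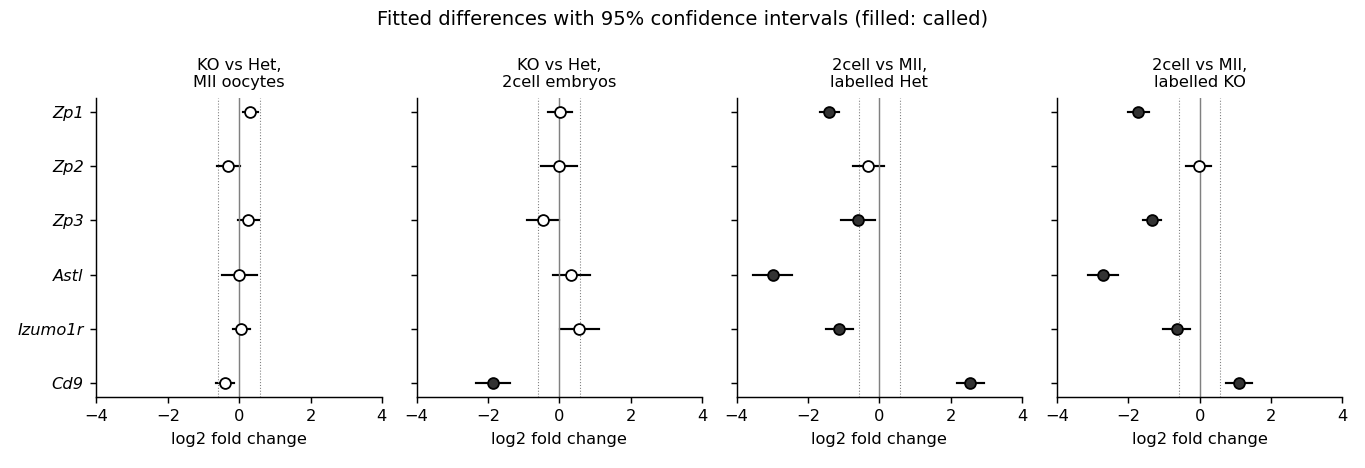
Points are fitted log2 fold changes on the log2(FPKM + 0.1) scale, lines their 95% confidence intervals, dotted lines 1.5-fold, and filled points members that were called. Between the genotypes only Cd9 in 2cell embryos (-1.85) is filled, and between the stages all but Zp2 are filled in both genotypes, with Cd9 the one on the right.

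The proportions of the 3 zona transcripts were set against each other within each library, which does not depend on scaling. *Zp1* made up 38.1 ± 1.59% of their summed FPKM in Het-labelled and 41.2 ± 2.94% in KO-labelled MII oocytes (SD, n = 5 each), and 24.6 ± 4.63% (n = 5) and 29.6 ± 4.14% (n = 4) in 2cell embryos. *Zp2* made up 14.7 ± 3.91% and 10.0 ± 1.46% in MII oocytes, and 21.0 ± 7.38% and 24.1 ± 4.76% in 2cell embryos. The ratio of *Zp1* to *Zp2* was 1.73 to 3.39 in Het-labelled MII oocytes and 3.56 to 5.04 in KO-labelled ones, without overlap. In 2cell embryos the ratio was 0.863 to 2.20 and 0.803 to 1.59. *Zp3* was at 38.8% to 62.8% of the sum in Het-labelled 2cell embryos and 40.5% to 49.6% in KO-labelled ones. These ratios were chosen after their genes' values were known and are given as a description. They were not adjusted for GC content, 55.1% in the *Zp1* and 47.1% in the *Zp2* transcript. With the GC trend removed, the log2 fold change between the genotypes of MII oocytes went from 0.31 to 0.13 for *Zp1* and from -0.30 to -0.27 for *Zp2*. No share of other gene pairs without overlap was computed.

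**Figure D5:**
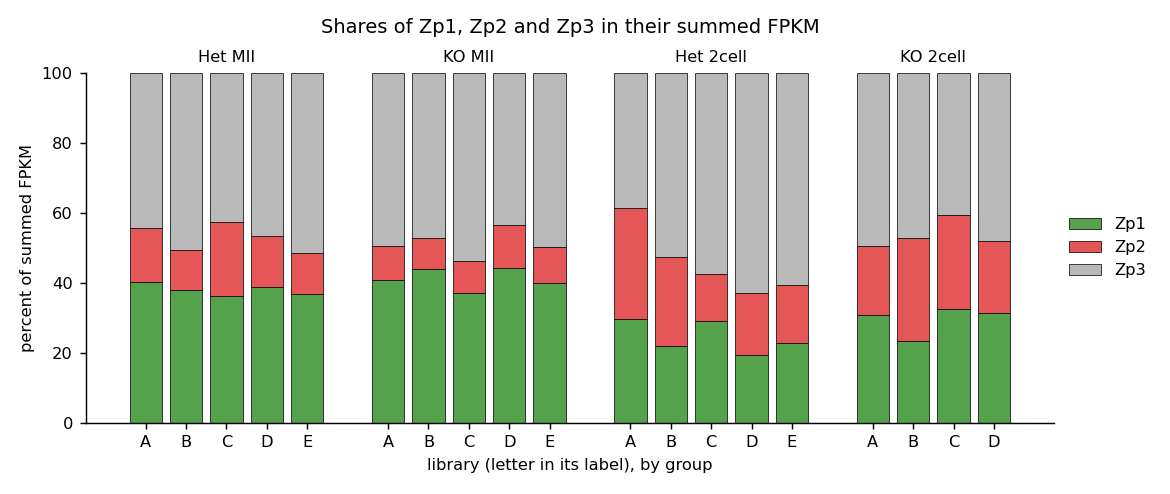
Each bar is 1 library, divided into the percent of Zp1, Zp2 and Zp3 in the sum of their FPKM, and the letters are those of the library labels. The share of Zp1 is larger in MII oocytes (mean 38.1% and 41.2%) than in 2cell embryos (24.6% and 29.6%), and that of Zp2 is smaller.

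The genes with profiles most like those of the members were found by the root mean square difference of centred log2 values over the 19 libraries, among 5278 to 5279 genes with a mean of at least 1 FPKM. Nearest to *Zp1* were *Ppp2r2d* (0.159), *Dnajc21* (0.171) and *Rtf1* (0.179). Nearest to *Zp2* were *Polb* (0.209), *Nudt5* (0.209) and *Cks1b* (0.210), and to *Zp3* *Pfdn2* (0.185), *Ccdc59* (0.198) and *Gm13237* (0.205). *Astl* was closest to *Cd164l2* (0.282), *Chaf1a* (0.290) and *Lin37* (0.292), *Izumo1r* to *Wasf2* (0.206), *Pycrl* (0.209) and *Cenpv* (0.226), and *Cd9* to *Gm14253* (0.288), *Zwint* (0.297) and *Srsf5* (0.323). No member was among the 3 nearest genes of another. Between the 6 members other than *Cd81*, the difference ran from 0.448 for *Zp1* and *Zp3* to 2.55 for *Astl* and *Cd9*. It was 0.467 for *Zp1* and *Izumo1r*, 0.811 for *Zp1* and *Zp2* and 1.43 for *Astl* and *Zp2*. *Cd9* lay at 1.25 or more from each of the other 5. *Cd81*, with 12 of 19 libraries at or under 3 fragments, gives no usable profile.

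The counts of gene lists around the members stand beside 12.9% of all genes called between the genotypes of MII oocytes, 5.59% higher and 7.29% lower. The list of oolemma partners (integrins, tetraspanins, membrane-cytoskeleton linkers) had 6 genes tested and 1 called lower. That gene was *Rdx*, which encodes radixin, a linker of the membrane to actin (42.5 ± 4.52 against 24.3 ± 5.14 FPKM, n = 5 each, -0.92 on the log2 scale with an adjusted p of 0.00651, limma). The list of zona processing and glycosylation had 6 tested and 2 called lower. These were *C1galt1*, the enzyme that extends O-linked sugars, and its chaperone *C1galt1c1* (-0.67 and -1.63 on the log2 scale, with adjusted p values of 0.00554 and 0.0140 in limma). *C1galt1* was low, at 0.151 ± 0.0316 against 0.0624 ± 0.0126 FPKM, and passed the filter of 0.1 FPKM through the Het-labelled libraries. *C1galt1c1* was at 3.92 ± 1.44 against 1.35 ± 0.689 FPKM (n = 5 each). Of 9 tested factors for transcription of zona and oocyte genes, 3 were called higher, and among these were the helix-loop-helix inhibitors *Id2* and *Id3* (1.18 and 0.97). Of the other genes with a zona domain 3 were tested and *Tectb*, a gene of the inner ear matrix, was called higher (0.319 ± 0.0581 FPKM in KO-labelled libraries, adjusted p = 0.00108, limma). Of 5 tested sperm partners *Spam1* was called lower (-0.82). In egg activation and calcium (8 tested), cortical granules and exocytosis (10 tested) and the folate receptor family with GPI anchor synthesis (4 tested), limma called 0 genes, and 3, 4 and 1 had an unadjusted p under 0.05, as did 37.1% of all genes. The medians of the lists lay between -0.23 and 0.19, beside 0.01 over all genes.

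In 2cell embryos 18.3% of all genes were called between the genotypes, 8.41% higher and 9.85% lower. The oolemma list had 9 genes tested, and only *Cd63* was called. Of 11 tested genes of cortical granules and exocytosis, *Nsf*, an ATPase of membrane fusion, was called higher (log2 fold change 0.90) and *Snap23*, a SNARE protein, lower (-0.98). Of 8 tested genes of egg activation *Camk2g*, a calcium-dependent kinase, was called higher (0.96). Of 10 tested transcription factors *Sohlh1*, a factor of early oocytes, was called higher (1.23, adjusted p = 0.0354, limma), and the median of that list was 0.62, beside -0.01 over all genes tested. Limma called 0 of 8 genes of the folate receptor list, 0 of 5 of zona processing and 0 of 3 sperm partners, and 1, 0 and 1 had an unadjusted p under 0.05, as did 34.3% of all genes. No other zona domain gene was tested in 2cell embryos.

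Between the stages the lists stand beside 38.5% of all genes called higher and 30.9% called lower in Het-labelled libraries, and 37.5% and 29.7% in KO-labelled ones. Of zona processing genes 5 of 6 tested were called lower in Het-labelled and 4 of 6 in KO-labelled libraries, and 0 were called higher. Among them were *Tmed10*, a cargo receptor of the secretory pathway (4.63 to 0.799 FPKM in Het-labelled), and *Furin*, a convertase that cleaves zona precursors (0.383 to 0.101 FPKM). Of the folate receptor and GPI anchor list 4 of 7 were called higher in each genotype, with 2 lower in Het-labelled and 1 lower in KO-labelled libraries. *Pigc*, a gene of GPI synthesis, was higher (log2 fold change 1.61 and 1.64 in Het- and KO-labelled libraries) and *Piga*, of the same enzyme complex, lower (-1.03 and -0.77). Of the oolemma list 1 of 7 tested was called higher and 4 lower in Het-labelled, and 2 of 9 higher and 3 lower in KO-labelled libraries. *Rdx* was lower in 2cell embryos (log2 fold changes -4.04 and -3.04 in Het- and KO-labelled libraries), and so was *Itga6*, an integrin chain (-1.74 and -2.13).

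Of cortical granule and exocytosis genes 1 of 10 tested was called higher and 5 lower in Het-labelled, and 2 of 11 higher and 5 lower in KO-labelled libraries. Of egg activation genes 1 of 7 was higher and 3 lower in Het-labelled, and 0 of 9 higher and 2 lower in KO-labelled libraries. *Atp2b1*, a calcium pump of the plasma membrane, was among the lower ones (1.17 to 0.140 FPKM in Het-labelled and 1.10 to 0.105 FPKM in KO-labelled libraries). Of transcription factors 4 of 9 were higher and 4 lower in Het-labelled, and 5 of 10 higher and 2 lower in KO-labelled libraries. *Nobox*, a homeobox factor of the oocyte, fell from 24.5 to 2.00 FPKM in Het-labelled libraries, while *Id1*, an inhibitor of helix-loop-helix factors, rose from 0.0712 to 20.5 FPKM. Of the other zona domain genes 0 of 1 tested was called in Het-labelled libraries (1 at an unadjusted p under 0.05, limma, as were 78.2% of all genes) and 1 of 3 was called lower in KO-labelled ones. Of sperm partners 3 of 4 and 5 of 5 were called lower.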

How the data were processed

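RNA was measured in 19 libraries of mouse MII oocytes and 2cell embryos, grouped by the stage and genotype in their labels. The authors trimmed reads with Trim Galore 0.4.1, mapped them to GRCm38 with HISAT2 (2.0.5 per the labels) and deposited FPKM values from SeqMonk, which are scaled to transcript length and library size. The methods name a HiSeq X sequencer and the labels a NovaSeq. The table's name announces raw counts, but only 0.00203% of its values are whole numbers above 0, so it was read as FPKM and no count test was run. Annotation and strand use are not given in the sources used here. There were 0 columns not used.

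Depth was estimated from the steps between low values of 9238 genes with 1 transcript, of which a median of 46.2% lay within 0.05 of a whole fragment (10% by chance). At 3 fragments or fewer a value was taken as being at the floor, which covers counting error only.

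Scaling factors for the libraries of each comparison were trimmed means of their log ratios (30% of ratios and 5% of levels trimmed). limma 3.58.1 (R 4.3.3) with a variance trend was fitted to log2(FPKM + 0.1), with group as the only term, with Benjamini-Hochberg adjustment over all genes tested. The study's methods name a t-test between groups, and limma was used here in its place. The interaction was tested in 1 fit of 19 libraries, where a gene had to reach 0.1 FPKM in 4 or more. The procedure was checked beforehand on simulated data. The 3′ ends came from GENCODE vM21 and promoters from RefSeq, and Python 3.11.15, numpy 2.4.6, pandas 2.3.3 and matplotlib 3.10.9 were used.

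The members and gene lists were chosen with earlier results of these data known. The text names all 7 members and the 3 genes nearest in profile to each member except *Cd81*. From each list around the members it names up to 2 called genes per direction and comparison with the largest change. Cell type markers were named outside this rule, whether called or not. *Folr1*, *Cd63-ps* and the cell type markers were described, and the zona ratios formed, after values were seen. Alternatives were the values as deposited, scaling to the sum, quantile normalization, a pseudocount of 1 FPKM, no filter, a filter at 1 FPKM, unadjusted p, no fold limit, all libraries in 1 fit, the replicate letter as a block, removal of the trend with GC content (loess, span 0.5), and each library left out in turn.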

Additional observations from a re-analysis of the deposited data

Results flagged for a closer look

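Of 28 groups of values (7 genes in 4 groups of libraries), 2 had a library far from the others by Dixon's test, and chance gives about 1 in 20. *Zp2* was at 2.10 FPKM in KO MII replicate D, where the next library was at 1.72 FPKM (ratio of gap to range 0.764). *Cd81* was at 0.107 FPKM in Het 2cell replicate E, where the next library was at 0.0356 FPKM (0.713), a difference of a few fragments. The difference of *Cd9* between the genotypes was itself different between the stages, with a log2 value of -1.40 for 2cell embryos minus MII oocytes (adjusted p = 0.00179, limma interaction test, 7.89% of genes passing). All 4 KO-labelled 2cell libraries lay below all 5 Het-labelled ones.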

How the results depend on the processing

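*Cd9* was called between the genotypes of 2cell embryos in every alternative and every fit without 1 library (log2 fold changes -1.98 to -1.72 without 1 library, and -1.18 with a pseudocount of 1 FPKM), and so was its interaction (-1.53 to -1.27, and -0.996 with that pseudocount). Counts of called members moved as follows. In MII oocytes 0 became 2 without a fold limit (*Zp1*, *Cd9*). In 2cell embryos 1 became 2 with scaling to the sum of FPKM and with all libraries in 1 fit (*Izumo1r* added) and with the GC trend removed (*Zp3* added), and it was 1 to 2 without 1 library (2 without Het 2cell replicate A). Between the stages 5 became 3 with a pseudocount of 1 FPKM and 4 as deposited in both genotypes. A filter at 1 FPKM, under which fewer genes were tested, gave 3 in Het- and 4 in KO-labelled libraries. Scaling to the sum and quantile normalization gave 6 in Het-labelled libraries, and 4 to 5 were called without 1 library in each genotype (4 without Het 2cell replicate A, Het 2cell replicate B or KO 2cell replicate B). For the interaction 1 became 3 with unadjusted p and 2 with the GC trend removed (*Zp3* added), and it was 1 to 2 without 1 library. Other causes were not tested.

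Direction turned only for members that were not called. *Astl* in MII oocytes (0.00) was at -0.0154 after quantile normalization, -0.0108 with a pseudocount of 1 FPKM, -0.0229 without a filter, -0.14 with the GC trend removed and -0.13 to 0.15 without 1 library, and *Izumo1r* there was at -0.15 with the GC trend removed. *Zp1* in 2cell embryos was at -0.00974 without a filter, -0.22 with the GC trend removed and -0.0381 to 0.12 without 1 library. *Zp2* in 2cell embryos was at 0.0476 as deposited, 0.33 scaled to the sum, 0.0290 after quantile normalization, 0.0325 with all libraries in 1 fit, 0.11 with a filter at 1 FPKM, 0.0696 with the GC trend removed and -0.14 to 0.11 without 1 library. *Zp2* between the stages in KO-labelled libraries was at 0.0708 as deposited, 0.0302 with a filter at 1 FPKM, 0.0893 with the GC trend removed and -0.12 to 0.0563 without 1 library.

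Over all genes, 1355 calls in MII oocytes, 2565 in 2cell embryos, 8811 and 9044 between the stages (Het, KO) and 1246 for the interaction became 481, 1178, 5119, 5263 and 1772 with a pseudocount of 1 FPKM. A filter at 1 FPKM gave 774, 1496, 4167, 4399 and 835, no fold limit 2247 in MII oocytes, and unadjusted p 3646 for the interaction. The share of higher calls was 43.4% in MII oocytes and 46.0% in 2cell embryos, and 69.9% and 80.9% with scaling to the sum, which moved the median of all genes to 0.15 and 0.26. As deposited it was 57.1% in MII oocytes and 52.3% in 2cell embryos. With all libraries in 1 fit it was 53.8% in 2cell embryos. Between the stages it was 55.5% (Het) and 55.8% (KO), and 41.2% and 44.8% scaled to the sum and 41.5% in both after quantile normalization. For the interaction it was 49.0%, and 65.8% scaled to the sum, 39.8% as deposited and 38.4% without KO MII replicate A. Replicate letters did not pair the libraries (correlations of same-letter libraries -0.37 to 0.20 for MII and -0.15 to 0.11 for 2cell libraries, and 1 letter in each stage was closest to its own). With the replicate block, calls fell to 824 in MII oocytes, 414 in 2cell embryos and 831 for the interaction, and the counts of called members were 0, 1, 5, 5 and 1, as without it. *Cd9* in 2cell embryos was then at -1.74 (adjusted p = 0.0403, limma). Depth limits *Cd81*, *Astl* in 2cell embryos and *Cd9* in MII oocytes, which rest on few fragments.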
